A study of Rattus norvegicus with 27 samples.

Results

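The report compares CpG methylation in the renal outer medulla of Dahl salt-sensitive (SS) rats from the colonies labelled MCW and CRL, both kept on low salt. Its members are the 3 libraries of MCW_LS and the 4 of CRL_LS, 7 of the 27 libraries of the series, chosen by their labels and not by measured values. MCW_LS rats were fed the purified diet AIN-76A with 0.4% NaCl, and CRL_LS rats the non-purified diet 5L2F with 0.75% NaCl, both until an age of 8 weeks. Colony, diet base and salt content therefore differed together between these groups, and their parts in a difference cannot be told apart on low salt. Beside them stand the high-salt groups MCW_HS and CRL_HS (n = 4 each), which were moved at an age of 6 weeks to AIN-76A containing 4% NaCl and stayed on it for 14 days. For those 14 days the diet was the same in both colonies, but a diet that differed before them cannot be told apart from colony. The high-salt comparison shares no rat with the low-salt one. Each library was 1 rat and all rats carried the SS strain name. The labels give neither the sex of the rats nor what MCW and CRL stand for.

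Dahl SS rats are inbred and develop hypertension and kidney damage when fed salt. The outer medulla holds the medullary thick ascending limbs, which reabsorb sodium chloride and are a known site of disturbed salt handling in these animals. Methylation of cytosine in CpG pairs is copied when cells divide, is low in CpG-dense stretches such as many promoters and high over most of the remaining genome, and follows both cell type and DNA sequence. Reduced representation bisulfite sequencing (RRBS) reads CpGs next to the cutting sites of the enzyme MspI. After bisulfite a methylated cytosine is still read as C and an unmethylated one as T, and the level is the share of C among both. A level from a piece of tissue is a mean over its cells, so that a change within cells and a change in the mix of cells cannot be told apart. Positions are given on the rat build rn5. No gene annotation of that build was used here, so positions carry no gene names and the tissue label could not be set against marker genes.

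The MCW_LS libraries held 44054860 to 95102303 CpG read counts and the CRL_LS libraries 35755019 to 67270604. At the 484749 CpGs with at least 10 reads in every one of the 15 libraries of the table (common sites), median depth was 31 to 66 reads in MCW_LS and 24 to 44 in CRL_LS. The deepest library of each group, MCW_LS replicate 2 and CRL_LS replicate 3, was also the only one of its group whose column name carries the letters RP, whose meaning the labels do not give.

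The colonies differed most plainly in a stretch of chromosome 16 where CpG positions were read in 1 colony and had no read in the other. At 8 positions every rat of one low-salt group had at least 10 reads and every rat of the other had 0. These are 0.00101% of the 789116 positions with at least 10 reads in all rats of one group. All 8 lay on chromosome 16, which held 3.07% of the positions that could have met the rule, within 883.693 kb between positions 58332541 and 59216234. They fall into 3 places, 4 positions within 75 bp, 2 within 26 bp and 2 within 33 bp, and neighbours at a place have nearly equal or doubled counts, so the 8 positions are not 8 independent observations. The count of positions was chosen after the files were examined and is a description without a test.

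The first place was read in CRL rats. At position 58332576 the CRL_LS rats had 28, 22, 52 and 20 reads and the 3 MCW_LS rats none. At position 58332606 they had 28, 22, 51 and 20 reads against none. The highest count at both positions belonged to CRL_LS replicate 3, the deepest library of that group. On high salt the CRL_HS rats had 22, 29, 46 and 30 reads at the former position and the MCW_HS rats 0, 2, 0 and 0. The reads of the CRL_LS rats gave a level of 74.7% ± 6.7 (SD, n = 4) at position 58332576 and 96.3% ± 4.3 at position 58332606. The outer positions of this place, 58332541 and 58332616, had 10 to 26 reads in the CRL_LS rats, 11 to 24 in the CRL_HS rats and at most 1 in any MCW rat of the table.

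The other places were read in MCW rats. Position 58449293, which lies 116.752 kb beyond the first, had 50, 79 and 28 reads in the MCW_LS rats and none in the 4 CRL_LS rats. Position 58449319 beside it had 26, 40 and 14 reads against none. The MCW_HS rats had 42, 34, 80 and 77 reads at the former position, and among the CRL_HS rats only replicate 2 had any, with 2. At position 59216201 the MCW_LS rats had 18, 49 and 13 reads, the MCW_HS rats 18, 10, 19 and 21, and all 8 CRL rats none. Position 59216234 differed from it by 1 read in 1 rat. Methylation in the MCW_LS rats was 91.8% ± 5.4 at position 58449293 (SD, n = 3) and 31.0% ± 16 at position 58449319, and 35.6% ± 11.3 and 62.5% ± 12.5 at the positions of the last place. At each of the 8 positions the lowest rat of the colony with reads stood above the highest of the other colony on high salt as well.

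**Figure D1:**
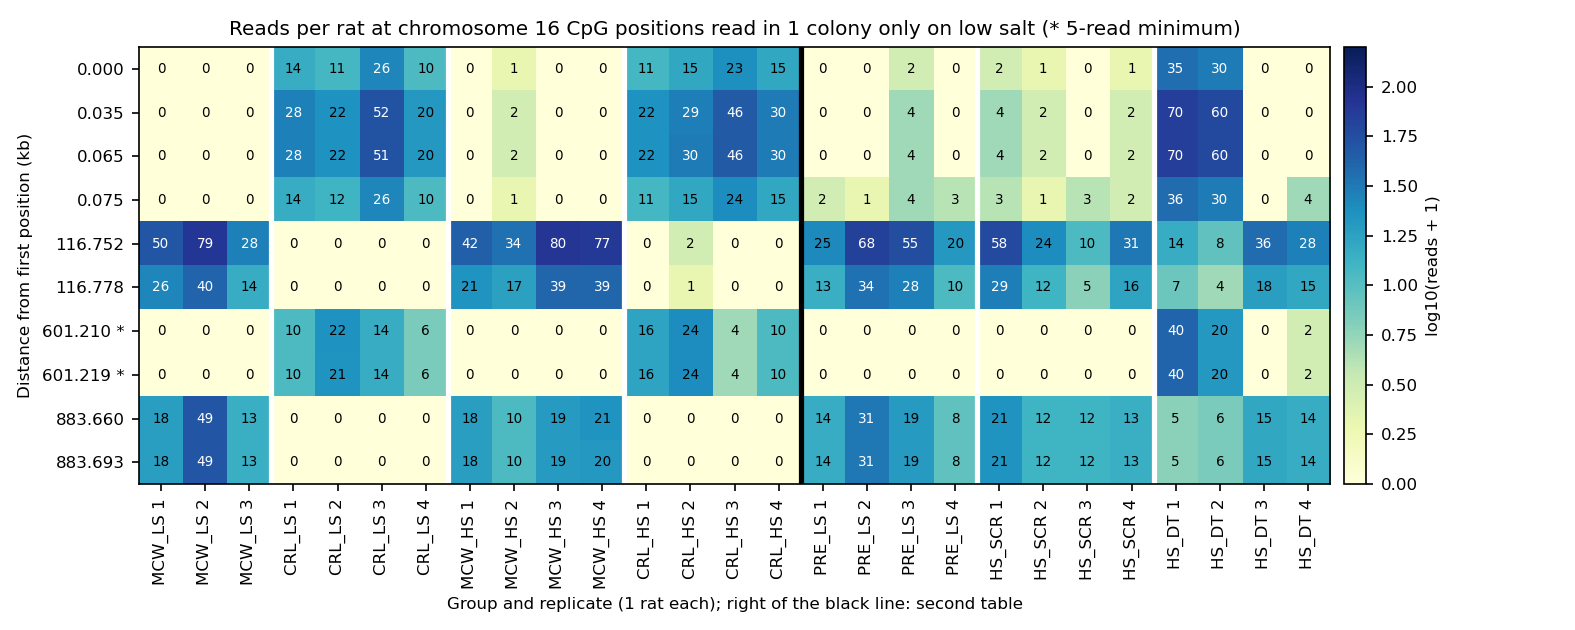
Reads at CpG positions of chromosome 16 (rows, distance in kb from the first position) in each rat (columns, 1 rat each, by group and replicate); the number and the shade, on a scale of log10(reads + 1), give the reads. Rows without a star are the 8 positions with at least 10 reads in all rats of one low-salt group and 0 in the other; the starred rows pass with 5 reads. The columns right of the black line are the second table, whose 12 rats are all labelled MCW SS, and HS_DT replicates 1 and 2 there have reads in rows of both colonies on chromosome 16. Its HS_SCR and HS_DT rats were on high salt and dosed with a GapmeR.

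The same stretch stood out under looser minimums, where positions on other chromosomes joined it. With at least 5 reads in one group and 0 in the other there were 19 positions, 10 of them on chromosome 16. Both added positions of chromosome 16, 58933751 and 58933760, lay inside the stretch and were read in CRL rats. At position 58933751 the CRL_LS rats had 10, 22, 14 and 6 reads, the CRL_HS rats 16, 24, 4 and 10, and the 7 MCW rats none. The 2 positions on chromosome 17, 75807039 and 75807103, were the same on high salt, with 11, 18 and 8 reads in MCW_LS, 13, 9, 15 and 12 in MCW_HS and none in the 8 CRL rats. The remaining 7 positions lay on chromosome 14 and did not keep their order on high salt. With at least 3 reads the rule gave 63 positions, of which 14 were on chromosome 16. On high salt 13 of the 63 kept their order, 11 of these on chromosome 16. A lower minimum thus gave more positions, of which a smaller share kept their order in the high-salt rats.

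The second table of the series came from rats all labelled MCW SS and sampled in another experiment. By their labels the PRE_LS rats were on low salt, and the HS_SCR and HS_DT rats were on high salt and dosed with a GapmeR. The labels give no such dose for any rat of the first table. Wherever levels or reads of both tables stand side by side, the part of this treatment was not tested. The second table held the positions above too. At position 58332576 its rats had 0 to 4 reads, except HS_DT replicates 1 and 2 with 70 and 60. These 2 rats also had reads at position 58449293, 14 and 8, where the other 10 rats had 10 to 68. At position 59216201 they had 5 and 6 reads and the others 8 to 31. At the chromosome 17 position 75807039 they had 0 and 1 reads, where the other 10 rats had 11 to 50. On chromosome 16 the 2 libraries thus held reads at the positions of both colonies, and on chromosome 17 they lacked those of the MCW rats, whereas in the first table no rat had more than 2 reads at a position of the other colony. They enter no test of the low-salt comparison.

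Inside the same stretch, 571.218 kb from its first position, lies the site with the smallest p-value of the low-salt comparison, chromosome 16 position 58903759. Its level was 0% in the 3 MCW_LS rats, at 27, 50 and 46 reads, and 45.5, 50.0, 47.7 and 64.7% in the CRL_LS rats, at 17 to 44 reads. A count of 0 allows a level of up to 11.1% in MCW_LS replicate 1 by the floor of 3 counts, and its exact 95% binomial limit is 12.8%. Intervals and floors cover counting error only. MCW_LS minus CRL_LS was -52.0 points (SE 4.34; adjusted p = 6.06e-04, moderated quasi-binomial test), and the groups were far apart. On high salt the 4 MCW_HS rats were again at 0% and the CRL_HS rats at 33.3, 52.2, 61.7 and 60.9%, and the colony term over both diets had an adjusted p of 1.32e-08. The call was lost with edgeR on methylated and unmethylated counts (adjusted p = 0.301), when sites of every pooled level were tested (adjusted p = 0.937) and with the replicate block (adjusted p = 0.959). In the second table HS_DT replicates 1 and 2 had 20.3 and 20%, at 64 and 60 reads. The other 10 rats had at most 2 methylated reads, at 82 to 170 reads, so the same 2 libraries stood apart here as at the positions above.

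The stretch held 90 common sites, of which 39 had a pooled level from 5 to 95% over the low-salt rats and were tested. The low-salt groups did not overlap at 4 of them (10.3%), against 5.54% of all tested sites, and 2 of the 4 kept their direction without overlap on high salt. In the 1000 kb before the stretch 0 of 18 tested sites were free of overlap, and in the 1000 kb after it 8 of 68. The difference between colonies was therefore not spread over the CpGs of the stretch: most of its measured sites had overlapping groups.

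A 500 bp bin lay 827.267 kb beyond the last of these positions, chromosome 16 from 60043501 to 60044000, and held 7 common sites. Its level was 46.2, 46.0 and 46.2% in the MCW_LS rats and 66.2, 58.5, 62.8 and 57.8% in the CRL_LS rats, at 169 to 474 reads per rat. The difference was -15.2 points (SE 1.98) without overlap, but the bin did not pass on low salt alone (adjusted p = 0.626). The MCW_HS rats had 47.6, 56.9, 59.5 and 55.7% and the CRL_HS rats 67.5, 65.3, 68.5 and 64.9%, again without overlap. It was the only bin that passed for the colony term over both diets (adjusted p = 0.0438), 0.00355% of 28130 bins tested. The call rested on nearly all of the libraries: no bin passed when any 1 library other than CRL_LS replicate 1, MCW_HS replicate 1 or MCW_HS replicate 3 was left out (12 of 15 libraries), with a smallest adjusted p of 0.0770 to 0.164. In the second table the bin stood at 36.8 to 54.5% with a median of 48.3% over the 12 rats, against 46.0 to 59.5% in the 7 MCW rats of the first table.

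**Figure D2:**
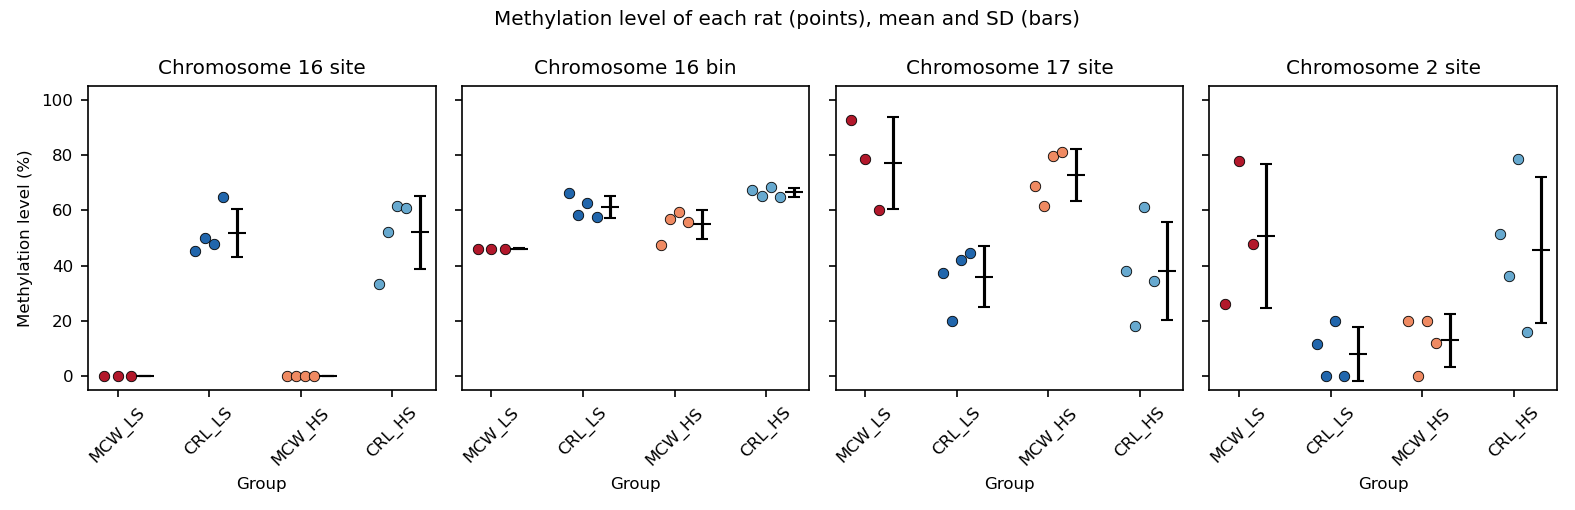
Methylation level in percent of each rat (points) by group, with the group mean and SD (bars beside the points), at 3 sites and 1 bin: the chromosome 16 site at position 58903759, the chromosome 16 bin from 60043501, the chromosome 17 site at position 12391772 and the chromosome 2 site at position 68014336. In the first 3 panels MCW lies on the same side of CRL on both diets; in the last panel MCW_LS lies above CRL_LS while the mean of MCW_HS lies below that of CRL_HS.

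Over the genome few single CpGs passed the test on low salt. On simulated counts this test recovered 3% of changes of 20 points and 21.5% of 30 points, so few calls do not mean few differences. Of 162736 tested sites 28 had an adjusted p below 0.05 (0.0172%), 8 higher and 20 lower in MCW_LS. The 28 sites had a median depth of 5.31 times the typical common site. Of them 6 (21.4%) were deeper than 10 times the median, against 1.67% of all common sites. At 16 of the 28 the groups were without overlap (0.00983% of tested sites). The sizes at the 28 sites, as differences of group means in which each rat counts equally, ran from 10.8 to 52.0 points with a median of 23.1. The test instead weighs each rat by its reads, so its p-values do not measure these sizes against their SE. The call count depended strongly on single rats: it was 2 without MCW_LS replicate 2, 219 without MCW_LS replicate 1 and 5157 without MCW_LS replicate 3, and 5, 13, 18 and 10 without CRL_LS replicates 1 to 4. The balance of directions moved too: 152 sites were higher and 67 lower without MCW_LS replicate 1, and 458 higher and 4699 lower without MCW_LS replicate 3. No site was called higher without MCW_LS replicate 2, CRL_LS replicate 1 or CRL_LS replicate 4. MCW_LS replicate 2 was the highest MCW_LS rat at all 8 higher sites and the lowest at 18 of the 20 lower ones. It was also the deepest of the 7 libraries, and at some called sites its reads stood out further. It had 327 reads against 30 to 83 in the other low-salt rats at chromosome 1 position 62847671. At chromosome 16 position 89391653 it had 1142 against 139 to 395. The tested MCW_LS level at such sites was mostly that of this 1 rat. At chromosome 16 position 58903759 it had 50 reads against 17 to 46. The part of depth in these calls was not tested.

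The 8 sites higher in MCW_LS were lower in MCW on high salt, in other rats. The parts of diet, of the choice by low-salt values and of single rats in this turn cannot be told apart. At chromosome 2 position 68014336 the MCW_LS rats had 26.0, 77.9 and 47.9% and the CRL_LS rats 11.8, 0, 20 and 0%. On high salt the MCW_HS rats had 20, 0, 20 and 11.9% and the CRL_HS rats 51.4, 36.4, 78.6 and 15.9%. The difference was 42.7 points on low salt (SE 15.8; adjusted p = 0.0172) and -32.6 on high salt, and the interaction of colony and diet passed (adjusted p = 0.00524, quasi-binomial test). In the second table the PRE_LS rats, labelled MCW SS and on 0.4% NaCl, had 14.97, 11.5, 10.47 and 13.3%, below every MCW_LS rat and within the range of CRL_LS. At chromosome 16 position 89391653 the PRE_LS rats had 42.9, 27.2, 26.5 and 38.0%, above every CRL_LS rat. They were also above every CRL_LS rat at chromosome 3 position 43116494 and chromosome 17 position 39005399. At the other sites higher in MCW_LS the range of PRE_LS overlapped that of CRL_LS. In all 8 sites higher in MCW_LS, MCW_LS replicate 2 was the highest low-salt MCW rat and CRL_HS replicate 3 the highest CRL_HS rat.

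Some of these sites on different chromosomes had nearly the same levels rat by rat. Chromosome 16 position 89391653 had 5.80, 69.2 and 47.7% in the MCW_LS rats and 16.7, 8.73, 18.2 and 23.7% in the CRL_LS rats. Chromosome 3 position 43116494 had 4.98, 69.4 and 48.8% against 15.2, 8.77, 21.0 and 24.8%. The tables do not show whether the reads of such sites came from 1 place or from both, so their chromosome is uncertain. The groups overlapped at both, since MCW_LS replicate 1 was the lowest of the 7 rats. At the other 5 of the 8 sites, chromosome 2 position 2983362, chromosome 4 position 176667228, chromosome 13 position 3524902, chromosome 1 position 47978923 and chromosome 17 position 39005399, the low-salt difference ran from 10.8 to 30.1 points. Low-salt reads at the 8 sites ran from 11 to 1142 per rat. The interaction passed at each of the 8 (adjusted p from 0.00139 to 0.0185), but the sites were chosen on low-salt levels that enter the interaction, so it is no independent measure of the turn. Over all sites the interaction passed at 149 of 164329 (0.0907%).

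The sites lower in MCW_LS were of 2 sorts, those that kept their direction on high salt and those that did not. At 10 of the 20 the difference had the same sign in the high-salt rats, against 51.9% of all sites tested on both diets. These 10 are few places: 1 is the chromosome 16 site above, 4 are near copies on chromosomes 14 and 5, and 5 are near copies on chromosomes 1 and 8. Over all 28 called sites there were 20 distinct patterns of levels. Chromosome 14 position 46859784 had 27.2, 19.9 and 37.5% in the MCW_LS rats and 44.1, 54.3, 53.4 and 52.6% in the CRL_LS rats. The difference was -22.9 points (SE 5.62; adjusted p = 0.00298) without overlap. On high salt the MCW_HS rats had 22.6, 50.9, 38.7 and 21.4% and the CRL_HS rats 45.1, 53.0, 56.9 and 46.2%, and only MCW_HS replicate 2 reached into the CRL range. The 12 MCW SS rats of the second table had 7.69 to 43.0% there, all below the CRL_LS rats. Chromosome 1 position 61419401 had 75.4, 69.0 and 94.7% in the MCW_LS rats and 98.6, 96.5, 97.4 and 98.5% in the CRL_LS rats (adjusted p = 0.0122). There MCW_LS replicate 3 and MCW_HS replicate 3, at 96.5%, stood near the CRL rats while the other 5 MCW rats lay between 69.0 and 82.8%. The second table had 55.1 to 77.8% at that site.

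Without the same direction on high salt were chromosome 1 positions 62847671, 62927842 and 47978977 and chromosome 6 position 39272925. Positions 62847671 and 62927842 had similar low-salt levels rat by rat and may not be separate places. At position 62847671 the MCW_LS rats had 20, 7.34 and 11.9%, and the CRL_LS rats 56.5, 47.5, 50.6 and 16.7%. The fourth CRL_LS rat, at 16.7%, lay within the MCW_LS range. The colonies differed by -29.8 points on low salt (adjusted p = 0.00295) and by 5.16 on high salt, and the interaction passed (adjusted p = 0.0458). The PRE_LS rats of the second table, labelled MCW SS and kept on 0.4% NaCl, had 47.1, 29.9, 54.2 and 51.6%, above every MCW_LS rat. At chromosome 6 position 39272925, a site with 675 to 3304 reads per low-salt rat, the MCW_LS rats had 34.5, 9.75 and 39.6% and the CRL_LS rats 53.9, 57.1, 41.6 and 58.0%. These groups did not overlap, and the difference of -24.7 points on low salt stood against 7.08 on high salt (interaction adjusted p = 0.0185). PRE_LS rats had 56.3, 52.9, 49.9 and 60.7% there, again above every MCW_LS rat. Called sites on chromosomes 1, 14 and 5 had nearly the same levels, so the chromosome of this site is uncertain. At chromosome 1 position 13558437, for 1, the MCW_LS rats had 33.6, 9.60 and 39.4%. At positions 62847671 and 39272925 the low level of MCW_LS was thus not seen in other low-salt rats labelled MCW SS. The tables were deposited separately and no test was run across them.

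Fitted over both diets, with 7 MCW and 8 CRL rats and diet as a term, 77 of 164329 sites passed for colony (0.0469%), 75 of them lower in MCW (0.0456%). Low salt in that term stands for a different diet in each colony, so the fit does not part colony from low-salt diet. These calls came from few stretches of DNA. With sites up to 200 kb apart put together, 70 of the 77 (90.9%) fell into 7 groups: 32 sites on chromosome 14 from 46703166 to 46859784, 10 on chromosome 5, 10 on chromosome 6, 8 and 3 on chromosome 1, 4 on chromosome 7 and 3 on chromosome 8. The groups in turn resembled each other in pairs. The mean levels of the chromosome 14 and chromosome 5 groups differed by at most 1.24 points in any of the 15 rats, those of chromosome 6 and the 8 sites of chromosome 1 by at most 0.773, and those of chromosome 8 and the 3 sites of chromosome 1 by at most 1.31. Read counts at these sites were high, with a median of 17.7 times the typical common site over the 77, and 18 of the 77 (23.4%) had counts equal to another position in all 15 libraries, against 10.6% of all common sites. Such sites may share reads, and how many separate places they stand for cannot be told from the tables. Of the 77, 48 (62.3%) were deeper than 10 times the median, and without such positions 18 sites passed. With 1 library left out, the 77 became between 20, without MCW_LS replicate 2, and 338, without MCW_LS replicate 3.

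The paired groups had nearly the same level in each rat. Over the 32 sites of chromosome 14 the mean level was 7.38, 6.97 and 13.6% in the MCW_LS rats and 17.3, 22.4, 22.8 and 24.0% in the CRL_LS rats. In the high-salt rats it was 7.02, 18.2, 14.1 and 9.44% in MCW and 26.4, 23.4, 29.8 and 21.3% in CRL. Only MCW_HS replicate 2 lay above the lowest CRL rat, CRL_LS replicate 1, and neither diet showed an overlap within itself. Over the 3 sites of chromosome 1 from 61418877 to 61419415 the mean level was 73.1, 65.5 and 96.5% in the MCW_LS rats against 95.6, 90.7, 98.8 and 95.6% in the CRL_LS rats. MCW_LS replicate 3 lay among the CRL rats there, as did MCW_HS replicate 3 with 94.1%, whereas the other MCW_HS rats had 56.6 to 74.0%. At the 4 sites of chromosome 7 from 14824180 to 14923498, the MCW_LS rats had 80.2, 74.5 and 93.4% and the CRL_LS rats 95.1 to 99.0%, so these groups did not overlap. These groups of sites were picked by the test over both diets and their levels are a description. The part of depth, of near copies and of the single rats named here in these differences was not tested.

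**Figure D3:**
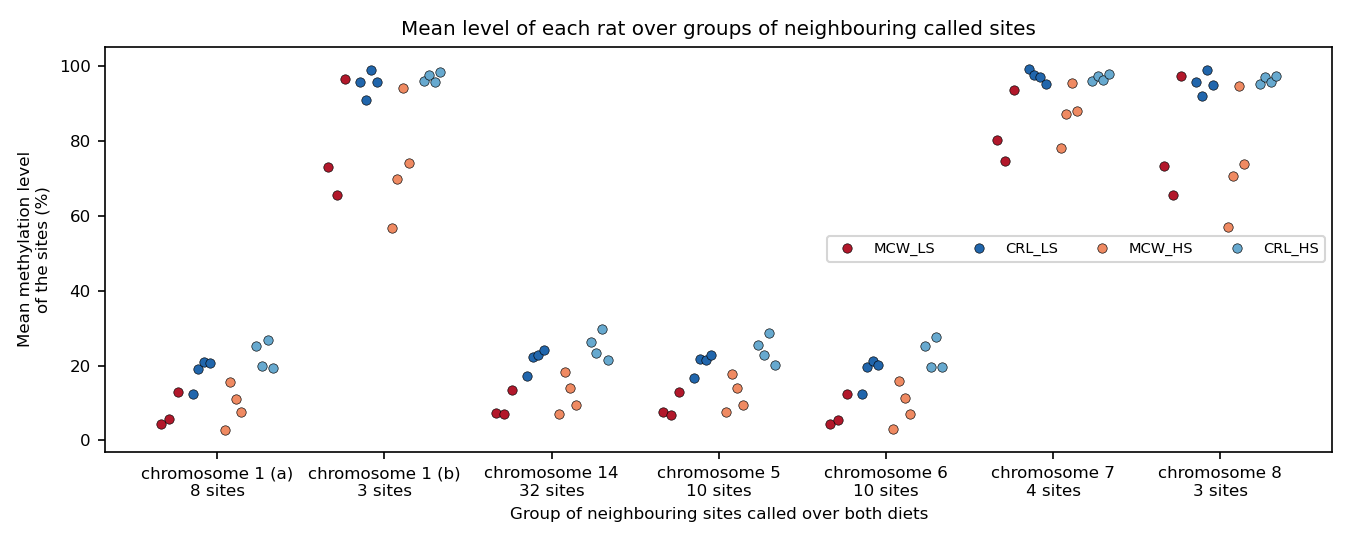
Mean methylation level in percent of each rat (points, coloured by group) over the 7 groups of neighbouring sites called for colony over both diets, labelled by chromosome and number of sites; (a) and (b) are the 8 and the 3 sites of chromosome 1. MCW rats lie mostly below CRL rats, but in each of the 7 groups at least 1 MCW rat lies above the lowest CRL rat.

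Only 2 of the 77 sites were higher in MCW. Chromosome 17 position 12391772 had 92.9, 78.6 and 60.0% in the MCW_LS rats and 37.5, 20, 42.1 and 44.4% in the CRL_LS rats. The MCW_HS rats had 68.8, 61.5, 79.5 and 81.2% and the CRL_HS rats 37.9, 18.2, 61.1 and 34.6%, so that neither diet showed an overlap, though by less than 1 point on high salt. It passed over both diets (adjusted p = 0.00606) but not on low salt alone (adjusted p = 0.0868), where the reads ran from 10 to 56. In the second table the 12 MCW SS rats stood at 46.0 to 60.3%, at 196 to 321 reads, below every MCW_HS rat and below MCW_LS replicates 1 and 2 of the first table. The other site, chromosome 19 position 65062706, had a mean of 97.8% in MCW_LS and 74.1% in CRL_LS, at a median of 18 reads. The MCW_LS rats had 100, 93.3 and 100% and the CRL_LS rats 85.7, 100, 37.5 and 73.3%, so these groups overlapped. On high salt all MCW_HS rats had 100% and the CRL_HS rats 80, 72.7, 75 and 85.7%.

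No 500 bp bin passed on low salt: 0 of 27982 bins with at least 3 common sites had an adjusted p below 0.05 (smallest 0.466, quasi-binomial test), and limma on log2 ratios gave 0 as well. On simulated counts the quasi-binomial test of bins recovered 0% of changes of 10 points and 59% of 20 points. In the low-salt rats an unadjusted p below 0.05 was reached by 1573 bins (5.62%). Without MCW_LS replicate 3 the count was 135 bins, 128 of them lower in MCW_LS. The groups did not overlap at 1564 bins (5.59%), 813 higher (2.91%) and 751 lower (2.68%) in MCW_LS.

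The bins named for the smallest p-values on low salt were taken from those whose low-salt groups did not overlap, so these groups stood apart by choice. Most of these bins differed far less on high salt, and the part of the choice in this was not tested. The chromosome 15 bin from 2359501 had 41.7, 40 and 35.4% in the MCW_LS rats and 25.5, 21.1, 23.5 and 25.4% in the CRL_LS rats over 8 sites. Its difference was 15.1 points on low salt (SE 2.15; adjusted p = 0.466) and 4.66 on high salt, where the groups overlapped. The chromosome 9 bin from 118904501 had the largest difference of the 20 bins with the smallest p-values, 10 in each direction, among those without overlap, with 79.5, 65.9 and 83.5% against 38.8, 51.7, 48.1 and 34.9%. Its difference of 32.9 points stood against -9.52 on high salt. The chromosome 10 bin from 62978001 was lower in MCW_LS, with 30.7, 28.1 and 26.2% against 55.6, 62.3, 51.4 and 45%. It differed by -25.2 points on low salt and by 2.48 on high salt. Of the 20 bins 12 had the same sign on high salt, against 51.8% of all bins tested on both diets. The chromosome 16 bin described above was the only 1 of the 20 to pass over both diets.

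Because the high-salt rats are other animals of the same colonies, on a single diet for 14 days, the differences were followed from low to high salt. Of 153076 sites tested on both diets, 8526 had low-salt groups without overlap. On high salt 238 of these were without overlap in the same direction (2.79%) and 109 in the opposite one (1.28%). Of all 153076 sites 3.00% were without overlap on high salt in either direction. Of the 165046 sites tested on high salt it was 2.97%, made up of 1.48% higher and 1.49% lower in MCW. The share in the same direction was thus above the share of either direction alone, and most of the 8526 sites overlapped on high salt. Neighbouring and near-copy sites are each counted in that share, which was 2.55% without positions of equal counts. The difference had the same sign on both diets at 52.5% of the 8526 sites and at 51.9% of all sites tested. Among bins 29 of 1541 kept their direction (1.88%) and 21 reversed it (1.36%). Of all 27665 bins tested on both diets 3.31% were without overlap on high salt in either direction, and of all 28242 bins tested on high salt 3.32%, 1.61% higher and 1.7% lower in MCW. The share of bins that kept their direction was near these one-way shares. Most low-salt differences without overlap therefore overlapped in the high-salt rats. Among the sites that differed by 20 points or more without overlap on low salt, 30 of 1561 were without overlap in the same direction on high salt. Among such bins it was 0 of 33.

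Some regions kept the direction of the colony difference without overlap on both diets. The chromosome 10 bin from 19245001 had 59.4, 53.8 and 56.9% in the MCW_LS rats and 41.7, 44.7, 36.4 and 41.2% in the CRL_LS rats. Its high-salt levels were 61.7, 57.0, 56.2 and 58.0% in MCW and 38.8, 40, 56.1 and 42.9% in CRL, where CRL_HS replicate 3 came within 1 point of the MCW rats. The chromosome 1 bin from 284862001 had narrow groups on both diets, with 29.6, 29.0 and 26.2% against 19.8, 19.5, 21.3 and 20% on low salt and 27.5 to 33.1% against 16 to 23.8% on high salt. The chromosome 2 bin from 209631001 had 74.3, 66.3 and 72.5% against 58.5, 59.4, 63.0 and 51.1% on low salt, and 60.7 to 64.0% against 33.3 to 55.1% on high salt. None of these 3 bins passed over both diets (adjusted p 0.356, 0.361 and 0.260).

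Of the 15 bins named for keeping their direction 11 were higher and 4 lower in MCW. Over all that kept it, 16 bins were higher and 13 lower, and 79 sites higher and 159 lower. The chromosome 3 bin from 8536001 had 64.1, 56.9 and 62.7% in the MCW_LS rats and 72.9, 71.8, 65.3 and 66.3% in the CRL_LS rats, and 3 other bins had levels within 2 points of it in every rat, so its place is uncertain. The chromosome 10 bin from 101978501 had 88.0, 83.3 and 75.9% against 90.8 to 96.0%, and 86.1 to 90.6% against 92.6 to 97.1% on high salt. Single sites that kept their direction included chromosome 7 position 26443579, with 37.5, 66.7 and 50.0% in MCW_LS against 76.5 to 90.7% in CRL_LS, and 37.5 to 73.7% against 80 to 100% on high salt. It missed the threshold over both diets (adjusted p = 0.0532), at 12 to 78 reads per low-salt rat.

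**Figure D4:**
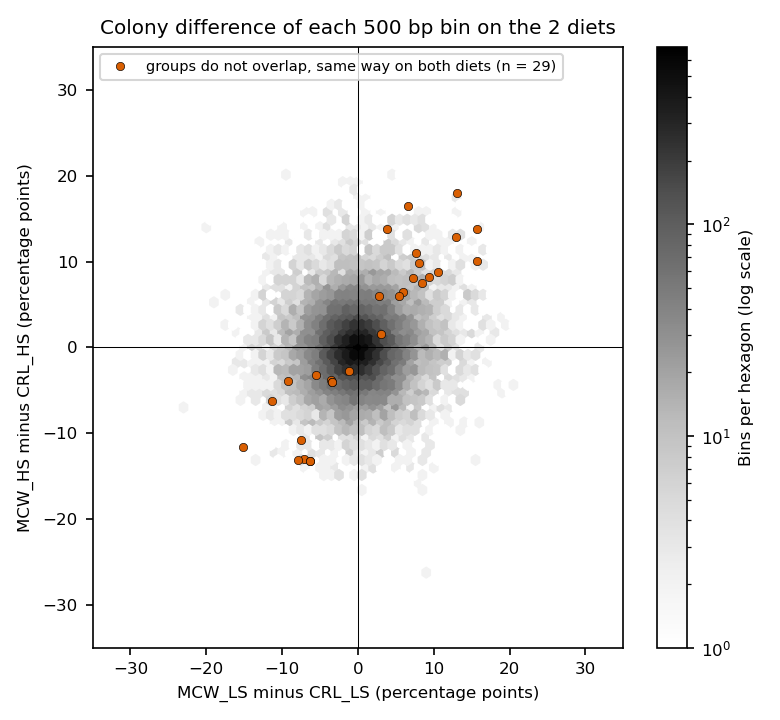
Colony difference in percentage points of each 500 bp bin on low salt (x axis) and on high salt (y axis); grey hexagons count bins on a log scale and orange points are the 29 bins whose groups did not overlap in the same direction on both diets. The cloud is close to round about 0, and the orange points are chosen to lie in the corners of equal sign.

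Mean methylation did not separate the colonies on low salt. Over all common sites the MCW_LS rats had 23.1, 23.4 and 23.4% and the CRL_LS rats 23.2, 23.3, 23.3 and 23.5%, and MCW_LS was the higher in 6 of 12 pairs of rats. The difference was -0.00487 points (SE 0.117; exact two-sided permutation p = 1). The smallest p that 3 against 4 rats allow is 0.0571. The same comparison was made in 28 classes of sites, by level, by number of sites per bin and by chromosome, and 0% of them passed (smallest exact permutation p 0.457, adjusted p 0.971). At sites of 20 to 80% methylation MCW_LS had 48.4% ± 0.213 (SD, n = 3) and CRL_LS 48.1% ± 0.446 (n = 4). At sites over 80% MCW_LS had 91.5% ± 0.403 and CRL_LS 91.8% ± 0.312, a difference of -0.257 points with MCW_LS higher in 4 of 12 pairs. CpG-dense bins with at least 20 sites were low in both colonies, at 2.17% ± 0.257 and 2.28% ± 0.0797.

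Among chromosomes the difference ran from -0.385 points on chromosome 14 to 0.154 on the X chromosome. On chromosome 14 the high-salt rats differed by nearly the same, -0.384 points, but MCW_LS rats spread by an SD of 0.832 there, more than on any other chromosome. The chromosome 14 group of 32 called sites lies on it. On the X chromosome the sign turned on high salt, to -0.242 points. No low-salt difference of class or chromosome exceeded its SE or the larger of the group SDs. Some exceeded the smaller SD, as on chromosome 14, where that of CRL_LS was 0.232.

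**Figure D5:**
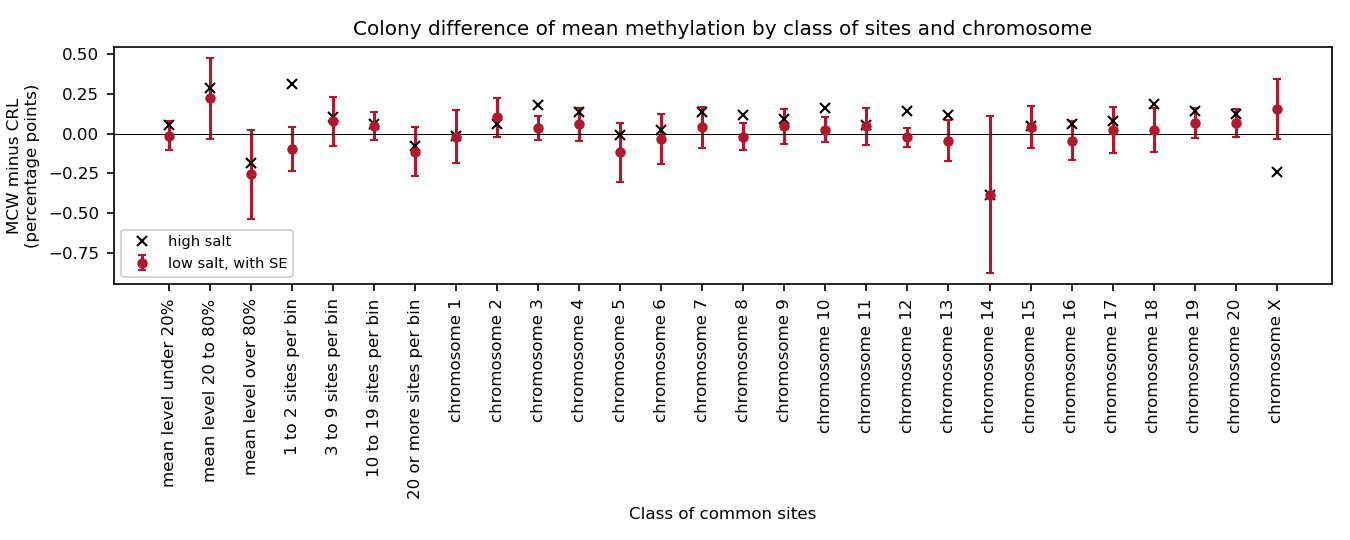
MCW minus CRL difference of mean methylation in percentage points (y axis) by class of common sites and by chromosome (x axis), on low salt (red points with the SE) and on high salt (black crosses). All classes lie within 0.4 points of 0, and chromosome 14 has the lowest value and the widest error.

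Rats of the same colony were about as far from each other as rats of different colonies. Over 27982 bins the mean absolute difference in level was 5.41 points between rats of different colonies and 5.37 within a colony, a gap of 0.0336 points (exact two-sided permutation p = 0.743). The nearest pair of the 7 rats was MCW_LS replicate 2 and CRL_LS replicate 3, at 4.52 points, the deepest library of each group. The farthest was MCW_LS replicate 3 and CRL_LS replicate 4, at 5.91. CRL_LS replicate 4, the shallowest library, was on average 5.72 points from the others. The deepest libraries were thus the nearest pair and the shallowest the farthest on average, and the part of depth in these distances was not tested.

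Read depth, as opposed to level, was also compared in 500 bp bins. Of 209090 bins 1 passed (0.000478%) by edgeR's quasi-likelihood test, chromosome 1 from 275040501 to 275041000 (log2 fold change -6.10, adjusted p = 0.0453). The MCW_LS rats had 0, 4 and 1 reads there and the CRL_LS rats 80, 107, 100 and 64. On high salt 3 MCW_HS rats had 124, 116 and 123 reads and MCW_HS replicate 3 had none, while the CRL_HS rats had 72 to 148. This bin was thus without or nearly without reads in 4 of the 7 MCW rats and in none of the 8 CRL rats. It no longer passed when any 1 of the 7 low-salt libraries was left out. The bins of the MCW-only places on chromosome 16 ranked next by p, at adjusted p = 0.301 for the bin from 58449001 and 0.980 for the bin from 59216001, with all CRL_LS rats at 0. The bin of the CRL-only place, from 58332501, ranked 48 (log2 fold change -0.81, adjusted p = 1). It also holds other CpGs and had 551 to 919 reads in the MCW_LS rats and 563 to 1189 in the CRL_LS rats, so the stretch there was read in both colonies and only some of its positions in 1.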

How the data were processed

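CpG methylation was measured by RRBS in 7 low-salt rats, with 8 high-salt rats of the same table beside them. The deposited tables hold counts of C and of T reads per CpG and rat, per the file headers; empty cells were taken as 0 reads. Trimming with Trim Galore 0.2.5 and the build rn5 are named in the submitters' processing notes. Aligner, caller and duplicate removal were not given in the sources used here. In the labels, the title of MCW_LS replicate 1 carries the letters RP, but its column does not and that of replicate 2 does; the columns were followed. The second table served only for reads and levels at named positions. No 2 libraries had equal counts throughout.

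Common sites had 10 or more reads in all 15 libraries (484749 of 2852395 positions). Sites with a pooled level of 5 to 95% over the compared rats, and 500 bp bins with 3 or more common sites, were tested by quasi-binomial regression on the counts. The dispersion was moderated with squeezeVar of limma 3.58.1 and held at 1 or more, and p-values were adjusted by Benjamini-Hochberg over all features tested (call: adjusted p below 0.05). "Without overlap" means that all rats of one group lie above all of the other. Read depth per bin was tested with edgeR 4.0.16 (TMM, filterByExpr) and with DESeq2 1.42.0, single values with exact permutation tests. Differences and their SE are of group means over rats in percentage points, each rat counting equally. The regression weighs each rat by its reads. The tests were checked on simulated counts in which 200 sites or bins of middle level were changed. The site test recovered 0, 3 and 21.5% of changes of 10, 20 and 30 points, with 0, 3 and 8 false calls. The bin test recovered 0, 59 and 95.5% of them, with 0, 15 and 6 false calls. Python 3.11.15, numpy 2.4.6, scipy 1.17.1, R 4.3.3 and matplotlib 3.10.9 were used.

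Named by rule were up to 10 called sites and up to 10 bins without overlap per direction by smallest p, and up to 15 sites and 15 bins that kept their direction without overlap on both diets, by the smaller of both differences. Sites with equal counts or within 1000 bp counted once. Positions and groups outside this rule, such as those read in 1 colony only, were chosen after their values were seen. The groups, lists and tests were chosen with earlier results of these data known. A test at gene starts was not run, because no annotation of rn5 was used here. Alternatives were 20 reads per library, removal of positions with equal counts or over 10 times the median depth, other models, other bins, a replicate block and each library left out.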

Additional observations from a re-analysis of the deposited data

Results flagged for a closer look

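At 10 of the sites named for low salt the colony difference itself differed between the diets by the interaction term (quasi-binomial test, adjusted over all sites; low-salt levels that chose the sites enter the term). The adjusted p was 0.00524 at chromosome 2 position 68014336, 0.00139 at chromosome 16 position 89391653, 0.00747 at chromosome 2 position 2983362, 0.00723 at chromosome 4 position 176667228 and 0.00223 at chromosome 3 position 43116494. It was 0.00139 at chromosome 13 position 3524902, 0.0185 at chromosome 1 position 47978923, 0.0115 at chromosome 17 position 39005399, 0.0458 at chromosome 1 position 62847671 and 0.0185 at chromosome 6 position 39272925.

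In the second table, whose rats are all labelled MCW SS and enter no comparison here, HS_DT replicates 1 and 2 had reads at chromosome 16 positions that no MCW_LS rat had read. By their labels these rats were on high salt and dosed with a GapmeR. The reads were 35 and 30 at position 58332541, 70 and 60 at position 58332576, 70 and 60 at position 58332606, and 36 and 30 at position 58332616. The other 10 rats of that table had 0 to 4 reads at these positions.

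A rat stood far from the others of its group in 4 of 95 groups examined (4.21%), where chance gives about 1 in 20 groups. CRL_LS replicate 4, the shallowest library, was that rat for the mean level of chromosome 6, at 23.0%, and of chromosome 10, at 18.6%. At chromosome 14 position 46859784 it was CRL_LS replicate 1, at 44.1%, and in the chromosome 19 bin from 35724001 it was CRL_LS replicate 4, at 31.1%.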

How the results depend on the processing

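The 28 low-salt sites became 81 with 20 reads in every library, 45 without positions of equal counts, 68 without positions over 10 times the median depth, 2 without both RP libraries, 7 with the dispersion of all 4 groups, 1 with limma, 14 with coverage asked of the low-salt libraries only, and 0 with edgeR (7452 at an unadjusted p below 0.05), with sites of every pooled level (12476) and with the replicate block (6933). The numbers did not pair the rats (correlations of deviations -0.00405, -0.0351 and -0.0208), and the block drops CRL_LS replicate 4. Low-salt bins stayed at 0 under each of the alternatives that kept all libraries, without the RP libraries and with the replicate block. The 77 sites over both diets became 124 with 20 reads, 18 without deep positions, 1 without the RP libraries and 1 with limma, and the single bin became 0 with 20 reads, without the RP libraries and with limma. Sites that kept their direction without overlap were 152 and bins 13 with 20 reads, instead of 238 and 29. Positions read in 1 colony only were 19 at 5 reads and 63 at 3 reads. The depth bin became 23 with DESeq2, 255 without a filter on low counts and 0 with the replicate block.

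With each library left out in turn, the counts ran from 2 to 5157 for low-salt sites, 0 to 135 for low-salt bins, 20 to 338 for sites and 0 to 2 for bins over both diets, 8 to 193 for high-salt sites, 8 to 11 for positions read in 1 colony only and 0 to 0 for depth bins. The mean level difference ran from -0.0614 to 0.0930 points and turned without MCW_LS replicate 1 (0.0930) and without CRL_LS replicate 4 (0.0543), also without positions of equal counts (0.00868), without deep positions (0.0289) and in replicate block pairs (0.0543). The distance between minus within colonies ran from -0.0720 to 0.139 points and turned without MCW_LS replicate 1 (-0.0346) and replicate 3 (-0.0720). No named site or bin turned its direction under the alternatives run. The causes were not tested. The alternatives for gene starts were not run.

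Median depths of 24 to 66 reads limit the levels of single sites, and 3 rats against 4 cannot reach an exact permutation p below 0.0571. Labels do not say how rats were housed or whether litters were shared.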

Other observations

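Other CpGs and bins kept their direction without overlap on both diets but did not pass over both. Chromosome 4 position 222506435 had 50.0, 78.4 and 68.2% in the MCW_LS rats and 100, 100, 96.2 and 82.9% in the CRL_LS rats. On high salt it had 58.3 to 74.1% in MCW and 84.6 to 100% in CRL (adjusted p over both diets 0.0532, quasi-binomial test). Chromosome 16 position 51792616, which lies before the stretch with positions read in 1 colony only, was higher in MCW, with 90.9, 91.8 and 81.0% against 66.7, 68.8, 72.7 and 60% on low salt, and 66.7 to 87.5% against 58.8 to 63.6% on high salt (adjusted p over both diets 0.201). Chromosome 18 from 77921001 was a bin of 8 sites higher in MCW, with 27.0, 22.6 and 23.8% against 15.4, 16, 10.2 and 19% on low salt and 21.6 to 26.1% against 12.4 to 19.6% on high salt (adjusted p over both diets 0.172). Such sites and bins were picked for keeping their direction, so their levels are a description.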
